A study of Mus musculus with 14 samples.

Results

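The C/EBP transcription factor family was followed here as 6 mouse genes, Cebpa, Cebpb, Cebpd, Cebpe, Cebpg, and Cebpz, out of 21441 protein-coding genes with a start placed on the GRCm38.p6 genome build. The members were taken by name, and a gene counted as called in a list when a H3K4me3 peak of that list lay within 1 kb of its start. Cebpa, Cebpd, and Cebpg were called in all 7 lists, Cebpz in 6, Cebpb in 5, and Cebpe in none. The study compared H3K4me3 in LSK cells (Lin-Sca1+cKit+), the stem and progenitor fraction sorted from bone marrow (BM) of tibias and femurs, between diets. HFD-LSK libraries (n = 3) came from C57BL/6J male mice kept on a high-fat diet for several months from shortly after weaning, and LFD-LSK libraries (n = 4) came from mice of the same strain and sex on a low-fat diet. The labels name no genetic change or drug in either group and do not say whether a library came from 1 mouse or from pooled mice. CUT&Tag, the assay used, directs a transposase to an antibody on chromatin, so that fragments pile up where the histone mark is present.

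C/EBP proteins are basic leucine zipper factors that bind DNA as dimers and drive granulocyte, monocyte, and fat cell differentiation. Cebpa encodes the factor needed for the step from multipotent progenitors to granulocyte and monocyte progenitors, Cebpb the factor of emergency granulopoiesis, Cebpd an acute-phase and inflammatory member, and Cebpe the factor of late granulocyte maturation. Cebpg encodes a short member without an activation domain that pairs with the others, and Cebpz, despite its symbol, encodes a CCAAT-binding protein that is not a basic leucine zipper factor. H3K4me3 marks the starts of active and poised genes, and wide H3K4me3 domains are known at genes that set cell identity.

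The lists were of unequal reach. They held 6921 to 13094 peaks per library, with median peak widths from 525 bp in LFD-LSK replicate 4 to 1198 bp in HFD-LSK replicate 2, and the fewest fragments at a called summit ranged from 4 to 21. HFD-LSK replicate 3 stood apart. A background of at least 1 scaled fragment lay at the summit in 51.8% of its peaks, against 0.416% to 13.9% in the other libraries. Background is given in scaled fragments, the units of the peak caller, and summits in H3K4me3 fragments before scaling. A H3K4me3 fragment counted as 0.0958 scaled fragments in LFD-LSK replicate 1 and as up to 0.913 in HFD-LSK replicate 3. An equal background is thus not an equal number of H3K4me3 fragments across libraries. Of the 12 LSK and stem cell markers, Kit, Cd34, Meis1, Mecom, and Gata2 were called in all 7 lists and 4 others in some lists. Ly6a (which encodes Sca1), Slamf1, and Lmo2 had no peak at the outermost start in any list. Inside the gene Lmo2 had a peak in 5 lists, while Ly6a and Slamf1 had none in any list. Among genes of lineages removed in the sort, 0 of 8 were called in any list, and among non-hematopoietic genes 1 of 5 was (Pdgfrb, in 2 lists). Of all coding starts, 48.7% were called in no list.

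Promoter sequence was available at the start of 3 members. The 250 bases before the start are printed for Cebpa, the member with the widest domain, for Cebpb, the member missed in 2 lists, and for Cebpg, the member with the steadiest rank. They are RefSeq sequences of GRCm38.p6, 5′ to 3′ on the strand of the gene, from chr7:35119043-35119292 (plus strand), chr2:167688665-167688914 (plus strand), and chr7:35056567-35056816 (minus strand). Capitals mark the letters TATAAA on the strand of the gene or CCAAT on either strand, and CCAAT on the opposite strand reads ATTGG.

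Cebpa: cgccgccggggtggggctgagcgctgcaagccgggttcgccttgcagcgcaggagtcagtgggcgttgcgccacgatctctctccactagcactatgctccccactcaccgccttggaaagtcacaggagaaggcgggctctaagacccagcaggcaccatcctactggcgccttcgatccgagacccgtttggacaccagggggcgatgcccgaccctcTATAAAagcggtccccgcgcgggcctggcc
Cebpb: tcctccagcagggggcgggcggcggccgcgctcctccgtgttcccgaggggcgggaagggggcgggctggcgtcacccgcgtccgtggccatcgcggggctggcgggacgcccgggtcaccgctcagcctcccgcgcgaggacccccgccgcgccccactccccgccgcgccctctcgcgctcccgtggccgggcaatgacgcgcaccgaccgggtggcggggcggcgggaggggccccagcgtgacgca
Cebpg: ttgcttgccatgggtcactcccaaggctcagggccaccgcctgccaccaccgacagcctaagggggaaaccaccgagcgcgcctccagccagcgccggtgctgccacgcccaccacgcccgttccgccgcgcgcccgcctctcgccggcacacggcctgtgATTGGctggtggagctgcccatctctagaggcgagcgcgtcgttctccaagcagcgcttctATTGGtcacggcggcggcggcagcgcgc

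CCAAT (the box bound by NF-Y) and TTGCNNAA (the core of the C/EBP site) were searched on both strands. TATAAA (the TATA box) was searched on the strand of the gene alone. The search covered the 300 bases from 250 before to 50 after the start, and these motifs do not overlap one another here. Cebpa held TATAAA from -30 to -25, counted from the start. Cebpb held TATAAA from 21 to 26 after the annotated start, outside the printed bases. Cebpg held CCAAT on the opposite strand at -89 to -85 and again at -28 to -24, and none of the 3 promoters held TTGCNNAA. Among the 10583 coding promoters of the same length matched to a start, 40.3% held CCAAT, 16.9% TATAAA, and 11.2% TTGCNNAA. All 3 promoters were rich in CpG. The ratio of observed to expected CpG was 0.853 at Cebpa with 29 CpG, 1.03 at Cebpb with 50, and 0.988 at Cebpg with 38. The median ratio over coding promoters was 0.836 for starts called in all 7 lists, 0.747 for those called in 1 to 6 lists, and 0.193 for those called in none. Cebpb had the highest ratio of the 3 yet the fewest calls, so the order of CpG content was not the order of calls.

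**Figure D1:**
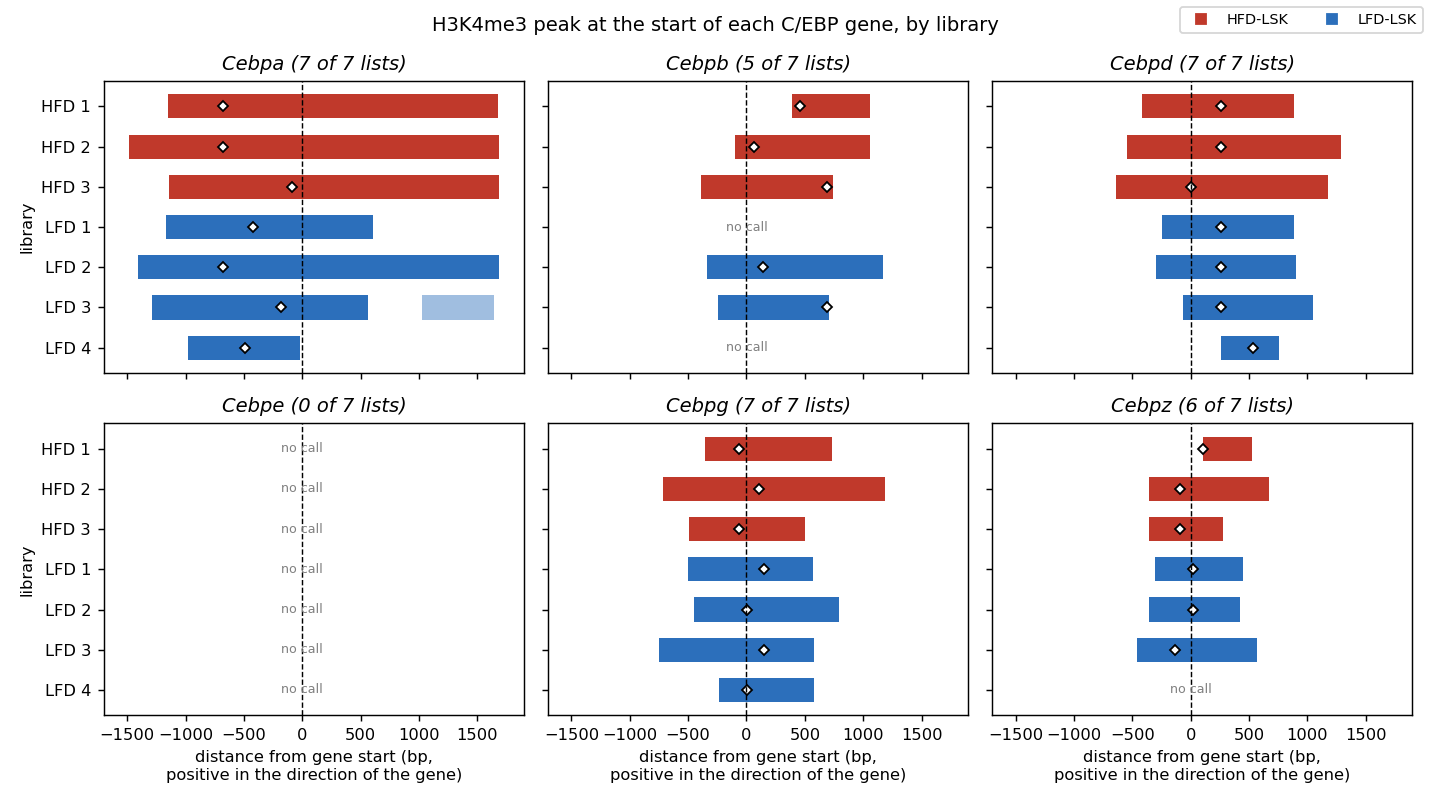
Extent of the H3K4me3 peak at each C/EBP gene start in the 3 HFD-LSK (red) and 4 LFD-LSK (blue) libraries. The x axis is the distance from the gene start in bp, bars are the widest peak within 1 kb, diamonds are summits, and the pale bar at Cebpa is a second peak of LFD-LSK replicate 3. Domains at Cebpa reached 1677 to 1682 bp into the gene in all 3 HFD-LSK libraries and in LFD-LSK replicate 2, and Cebpe had no bar.

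Calls at the starts were compared first. Of the 6 members, 3 were called in all 7 lists, 2 in some lists, and 1 in none, where the shares over all coding starts were 20.2%, 31.1%, and 48.7%. Cebpb had a call in all 3 lists of the HFD group and in 2 of the 4 from LFD mice, where it was missing from replicates 1 and 4 (Fisher's exact test, two-sided, p = 0.429). Cebpz had a call in all 3 HFD lists and in 3 of the 4 LFD lists, missing from LFD-LSK replicate 4 (p = 1 by the same exact test). Both replicates without Cebpb had the shortest lists, 7447 and 6921 peaks. With every list cut to the 6921 peaks of the shortest by fold, Cebpb was called in 0 of 7 lists, Cebpz in 4, Cebpd in 5, Cebpa in 6, and Cebpg in 7. With peaks of a −log10 q of at least 5 alone, Cebpb was called in 1 list, Cebpz in 5, Cebpa and Cebpd in 6 each, and Cebpg in 7. Of the 6 members, only Cebpg had its call in all 7 lists under both alternatives. Cebpa lost its call in HFD-LSK replicate 3 under each of them, and Cebpd in LFD-LSK replicate 3 under each and in HFD-LSK replicate 2 at equal length. The lists in which Cebpb and Cebpz lacked a call were also those lacking calls at many other genes. Of all coding starts, 445 were called in every list except those of LFD-LSK replicates 1 and 4, and 1506 in every list except that of replicate 4. No member reached a Fisher p under 0.05, which 0.154% of coding starts did. A start below the fewest fragments callable in a library is not seen there, so a missing call was not a measured absence.

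Cebpa (gene ID 12606) lies on chr7:35119293-35121928, plus strand, and had the widest domain of the family. The peak at its start spanned 2829, 3165, and 2825 bp in HFD-LSK replicates 1 to 3 and 1776, 3087, 1850, and 956 bp in LFD-LSK replicates 1 to 4. The HFD-LSK widths were close together, and LFD-LSK replicate 2 fell among them, so the groups overlapped. The mean was 2940 ± 195 bp (SD, n = 3) in HFD-LSK and 1917 ± 879 bp (SD, n = 4) in LFD-LSK, a difference of 1022 bp that did not pass an exact permutation test over the 35 ways to divide 7 libraries into 3 and 4 (two-sided, p = 0.114; the smallest p possible is 0.0286). Only 1.71% of the 4332 coding starts called in all 7 lists had a mean width as large as that of Cebpa over all libraries, 2355 bp. Within its own list the domain stood among the widest 0.522% to 2.89% of peaks in HFD-LSK and 0.880% to 13.2% in LFD-LSK.

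The shape of the domain differed among LFD-LSK libraries. In all 3 HFD-LSK libraries and LFD-LSK replicate 2 the peak ran from 1142 to 1482 bp upstream to 1677 or 1682 bp inside the gene. In LFD-LSK replicates 1 and 3 the peak ended 609 and 561 bp inside the gene, and in replicate 4 it ended at -23 bp, before the start. LFD-LSK replicate 3 had a second peak of 610 bp from 1028 to 1637 bp inside the gene, just beyond the 1 kb window. Joined across gaps of up to 500 bp, as a processing alternative, the difference between diets was 753 bp (exact permutation p = 0.371). Summits lay upstream of the start in every library, between -681 and -89 bp, and the merged domain over all lists covered 3165 bp at chr7:35117811-35120975.

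The rank of Cebpa by fold enrichment, the ratio of the summit over its background, was mostly in the upper part of the lists. Rank 1 is the highest of the consensus peaks, which are the 14659 regions left after merging all 7 lists, and tied peaks share their mean rank. Cebpa ranked 4331, 2157, and 11218 in HFD-LSK replicates 1 to 3 and 1842, 2914, 2699.5, and 1858 in LFD-LSK replicates 1 to 4. HFD-LSK replicate 3 was far from all others, at 99.97% of the way down its called peaks, and replicate 2 fell among the LFD-LSK values. The mean rank was 5902 ± 4730 (SD, n = 3) in HFD-LSK and 2328 ± 559 (SD, n = 4) in LFD-LSK (exact permutation p = 0.0857, two-sided). Over all 7 lists its mean rank was 3860. Of the 4332 starts called in all 7 lists, 63.6% had a mean rank as high, against 16.9% for Cebpg and 83.4% for Cebpd. Without HFD-LSK replicate 3 the difference in mean rank fell from 3573 to 915 (exact permutation p = 0.4). The low rank in that library came with a background of 6 scaled fragments at the summit, a level met by 0.685% of its peaks. The summit itself held 21 H3K4me3 fragments before scaling, as many as at Cebpg in the same library. The background at Cebpa was 0.0205 to 0.227 scaled fragments in the other 6 libraries. The part of the background in the rank was not tested, and the rank by fragments alone is given with the other alternatives.

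**Figure D2:**
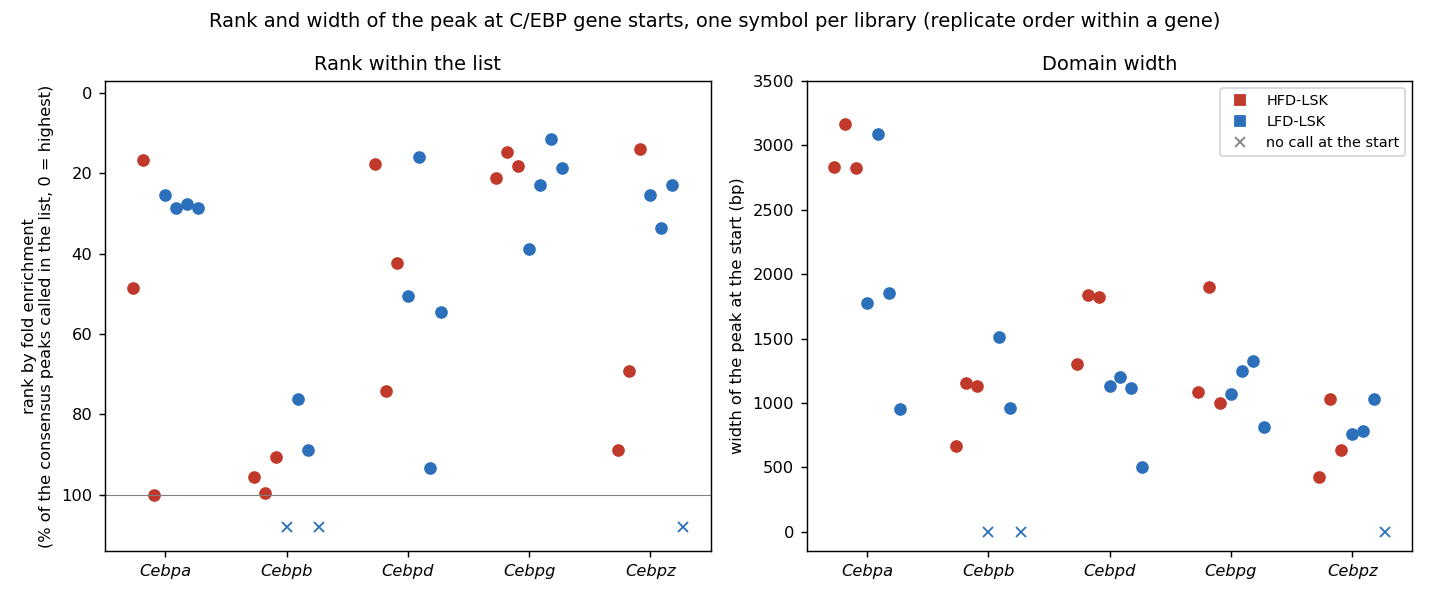
Rank by fold enrichment as a percent of the consensus peaks called in the list (left, 0 is the highest, axis inverted) and width of the peak at the start in bp (right), with 1 point per library in replicate order and crosses for libraries without a call. Cebpg stayed within the upper 38.8% of every list and Cebpb within the lower part, and the 3 HFD-LSK widths at Cebpd, 1302 to 1841 bp, were above the 4 LFD-LSK widths, 498 to 1201 bp.

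Cebpg (gene ID 12611) lies on chr7:35046422-35056566, minus strand, next to Cebpa. The starts of both genes are 62727 bp apart, and no H3K4me3 peak of any list lay within 50 kb of the Cebpg start outside the domain at the start itself. The rank of Cebpg was 1884, 1901, and 2037 in HFD-LSK replicates 1 to 3 and 2812, 2328, 1124, and 1213 in LFD-LSK replicates 1 to 4. The HFD-LSK values lay inside the range of the LFD-LSK values, and the means were 1940 ± 83.7 (SD, n = 3) and 1869 ± 834 (SD, n = 4; exact permutation p = 0.943, two-sided). Over the 7 lists the SD of its rank was 593, and 98.4% of the 4332 starts had an SD at least as large. The SD of the rank was 3356 at Cebpa and 3307 at Cebpd, sizes reached by 9.40% and 10.5% of starts. The width of the Cebpg peak was 1087, 1900, and 998 bp in HFD-LSK and 1072, 1244, 1326, and 816 bp in LFD-LSK replicates 1 to 4. HFD-LSK replicate 2 was the widest and the other HFD-LSK libraries fell among the LFD-LSK ones, and the difference of 214 bp did not pass the test (exact permutation p = 0.571). Summits lay within 148 bp of the start in all libraries. In HFD-LSK replicate 2 alone the peak reached the start of Gm45095, an annotated coding model on the opposite strand 1083 bp into the gene, and in the other 6 libraries it ended 503 to 793 bp inside Cebpg.

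Cebpd (gene ID 12609) lies on chr16:15887286-15889545, plus strand, and was the member whose width differed between diets. Its peak spanned 1302, 1841, and 1821 bp in HFD-LSK replicates 1 to 3 and 1134, 1201, 1116, and 498 bp in LFD-LSK replicates 1 to 4. All 3 HFD-LSK widths were above all 4 LFD-LSK widths, and LFD-LSK replicate 4 was the narrowest by far. The mean was 1655 ± 306 bp (SD, n = 3) in HFD-LSK and 987 ± 328 bp (SD, n = 4) in LFD-LSK, a difference of 667 bp (exact permutation p = 0.0286, two-sided, the smallest this design allows, with no adjustment). Of the starts called in all 7 lists, 3.74% were wider in HFD-LSK at this threshold, 0 were narrower, and 92.6% had a wider mean in HFD-LSK, with a median difference of 275 bp. A difference as large as that of Cebpd was present at 9.86% of these starts. As a width rank within each list the difference between diets no longer passed the test (exact permutation p = 0.171). The part of the general width of the libraries in the Cebpd result was not tested.

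The edges of the Cebpd peak moved on both sides. It began 416 to 641 bp upstream of the start in HFD-LSK and 64 to 298 bp upstream in LFD-LSK replicates 1 to 3, while in LFD-LSK replicate 4 it began 256 bp inside the gene. The far edge lay 885 to 1292 bp inside the gene in HFD-LSK and 753 to 1051 bp in LFD-LSK, with overlap between the groups. Summits were at 257 to 263 bp inside the gene in 5 of the 7 libraries. The rank of Cebpd was 1571, 9632, and 4744 in HFD-LSK replicates 1 to 3 and 3670, 1629, 9152, and 3546 in LFD-LSK replicates 1 to 4. High and low ranks occurred under both diets (exact permutation p = 0.714). In HFD-LSK replicates 2 and 3 and LFD-LSK replicate 3 the background at the summit was 2, 2, and 1 scaled fragments. It was 0.0205 to 0.0537 in the other 4 libraries. Those 3 libraries held the 3 lowest ranks of the 7, and the part of the background in them was not tested.

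Cebpb (gene ID 12608) lies on chr2:167688915-167690432, plus strand, and was the weakest of the called members. Where it was called, its rank was 8529, 12941, and 10175 in HFD-LSK replicates 1 to 3 and 7739.5 and 8709 in LFD-LSK replicates 2 and 3. All 5 values fell in the lower part of their lists, from 76.1% to 99.6% of the way down. Fold enrichment was 4.87, 4.12, and 4.68 in HFD-LSK and 6.58 and 5.06 in LFD-LSK, each against the background of its own library and not comparable as a level between libraries. The summit held 16 to 27 fragments, and the libraries without a call had called summits from 21 fragments (LFD-LSK replicate 1) and from 9 fragments (replicate 4). Uncalled lists were placed midway below their last called rank, at 10956 in LFD-LSK replicate 1 and 10585 in LFD-LSK replicate 4. Both places are nearer the top than the called rank in HFD-LSK replicate 2, which has a longer list. An uncalled list can thus outrank a called one in this measure. On these ranks the difference in mean rank was 1051 (exact permutation p = 0.543). Leaving out single libraries moved it between 146 (HFD-LSK replicate 2 absent) and 2062 (HFD-LSK replicate 1 absent). It was 493 with LFD-LSK replicate 2 absent and 2324 over the called libraries alone. Widths were 668, 1151, and 1131 bp in HFD-LSK and 1511 and 959 bp in LFD-LSK replicates 2 and 3, and the groups overlapped. Summits lay inside the gene, 63 to 689 bp after the start, in all 5 libraries.

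Cebpz (gene ID 12607) lies on chr17:78919003-78937070, minus strand, and had a narrow peak. Widths were 425, 1028, and 636 bp in HFD-LSK replicates 1 to 3 and 760, 781, and 1031 bp in LFD-LSK replicates 1 to 3, and the groups overlapped. Its rank was 7923, 8996, and 1575 in HFD-LSK and 1842, 3406, and 2249.5 in LFD-LSK replicates 1 to 3. The lowest and the highest ranks were both in HFD-LSK libraries (exact permutation p = 0.629, with the uncalled library placed below its last call). Their difference in mean rank, 1644, went from 349 with HFD-LSK replicate 2 absent to 4073 with HFD-LSK replicate 3 absent. Summits lay between -131 and 110 bp from the start. The start of Ndufaf7, which encodes a complex I assembly factor and is read in the opposite direction, is 36 bp away under the same peak, so the mark belongs to a divergent promoter and cannot be told apart between both genes.

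Cebpe (gene ID 110794) lies on chr14:54710363-54712174, minus strand, and had no peak at its start in any list. No peak lay anywhere inside the gene either. The closest called region was 25429 bp further along in the direction of the gene, measured to its centre, at chr14:54685691-54687799, and covered the starts of Acin1 and 1700123O20Rik. That region was called in 6 lists and ranked 8, 6, and 8618 in HFD-LSK and 45, 25, and 124 in LFD-LSK replicates 1 to 3, so in 5 libraries a very strong peak stood in the same neighborhood as the unmarked member. In HFD-LSK replicate 3, where it ranked low, the background at its summit was 3 scaled fragments. With 0 calls in 7 lists, Cebpe was in the 48.7% of coding starts without any peak.

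**Figure D3:**
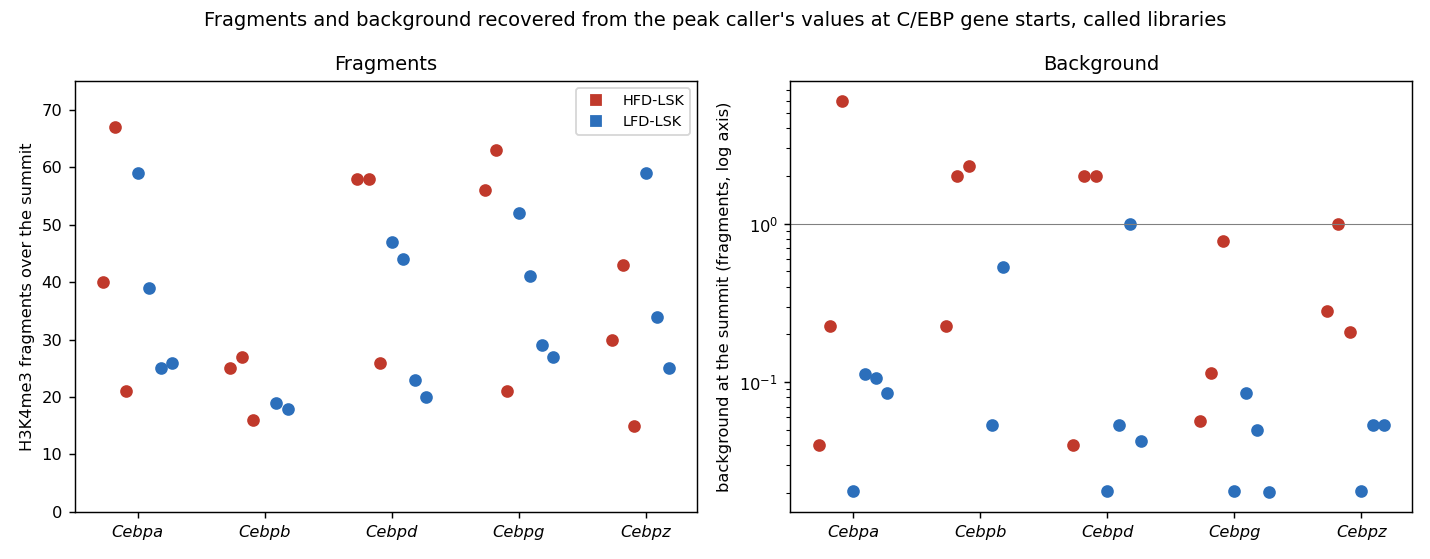
H3K4me3 fragments over the summit before scaling (left, linear axis from 0) and background at the summit in scaled fragments (right, log axis, grey line at 1) at the called C/EBP starts. HFD-LSK is in red and LFD-LSK in blue. The background of 6 scaled fragments at Cebpa in HFD-LSK replicate 3 is the highest point, and Cebpb has the fewest fragments at its best library.

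Behind each value stood few fragments. Summits held 21 to 67 fragments at Cebpa, 21 to 63 at Cebpg, 20 to 58 at Cebpd, 15 to 59 at Cebpz, and 16 to 27 at Cebpb. The highest count at Cebpb was thus below the highest at each of the other called members. A background of at least 1 scaled fragment was present at Cebpd in 3 libraries, at Cebpb in 2, at Cebpa and Cebpz in 1 each, and at Cebpg in none. Cebpg had the smallest SD of rank among the 3 members called in all lists, and the part of the background in it was not tested. No member had a rank that differed between diets at p under 0.05, where 0.323% of the 4332 starts ranked nearer the top in HFD-LSK and 3.65% farther from it, and the median rank difference over these starts was 678.

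**Figure D4:**
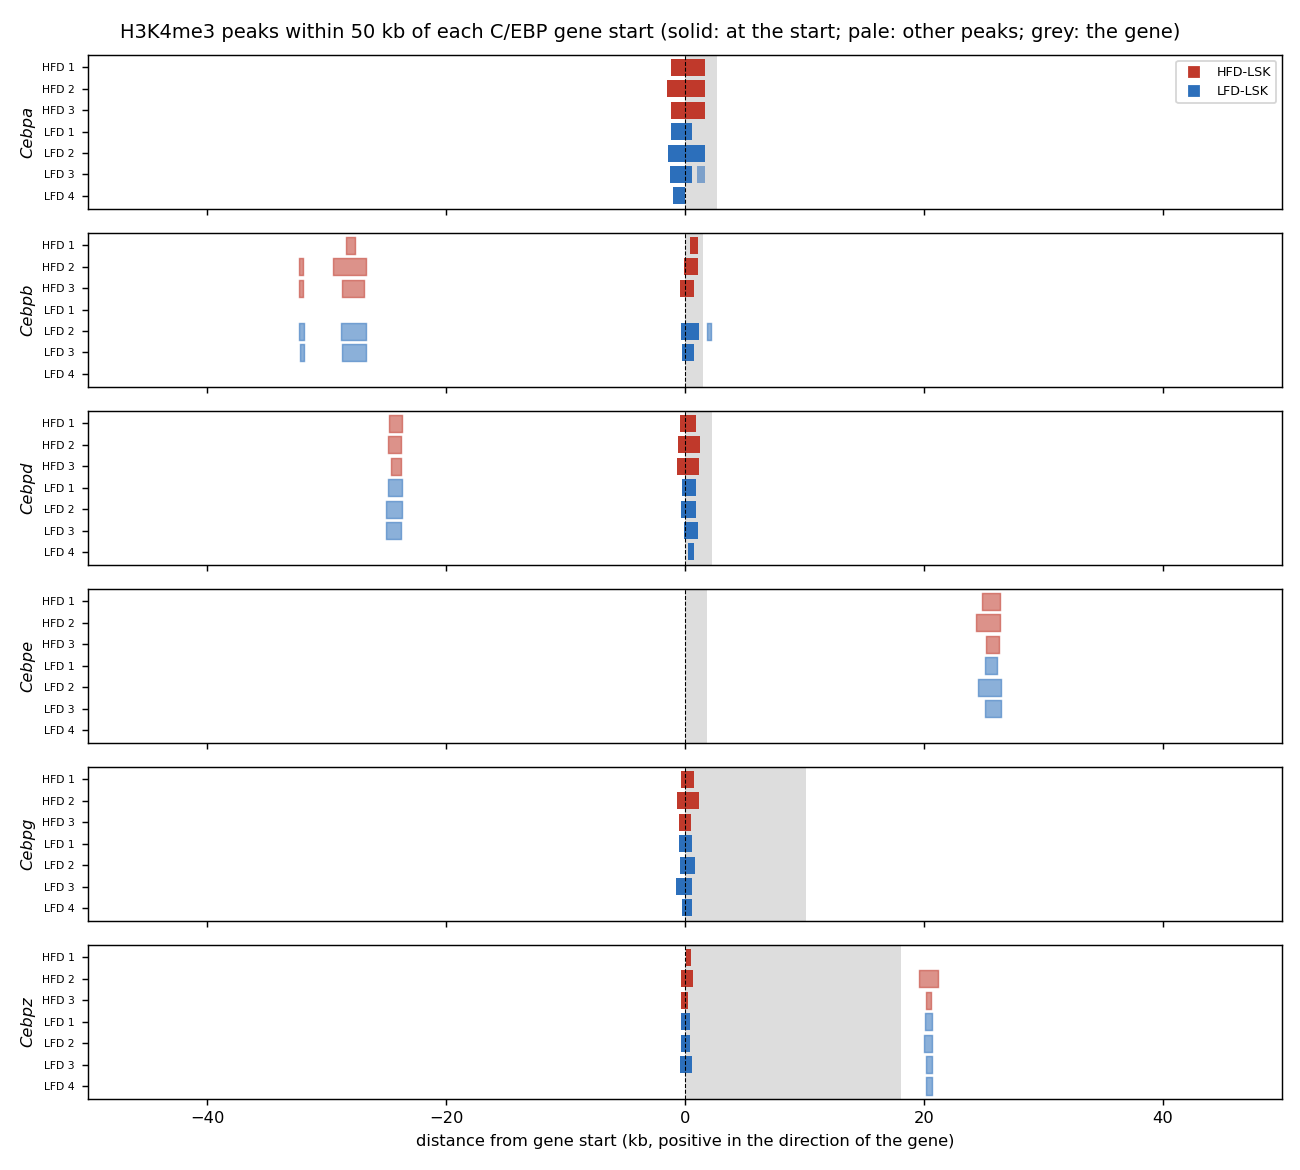
H3K4me3 peaks within 50 kb of each C/EBP gene start by library, with distance from the start in kb on the x axis (positive in the direction of the gene), solid bars at the start, pale bars elsewhere, and the gene in grey. Cebpb has an upstream region of unequal width in the 5 libraries that also mark its start, and no pale bar lies near Cebpg.

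Other peaks within 50 kb were few. Cebpb was the only member with called regions that covered no annotated gene start. A region of 2804 bp after merging the lists, at chr2:167659452-167662255 and centred at -28062 bp from the start, was called in 5 lists, the same 5 lists as the start. Its widest peak spanned 792, 2791, and 889 bp in HFD-LSK replicates 1 to 3 and 2115 and 2015 bp in LFD-LSK replicates 2 and 3. The region ranked 8556, 3228, and 6042 in HFD-LSK replicates 1 to 3 and 4723 and 3840 in LFD-LSK replicates 2 and 3, nearer the top than the Cebpb start in 4 of the 5. Its nearest annotated start is that of the long noncoding RNA Gm14320, 2316 bp away. A smaller region of 465 bp at chr2:167656588-167657052, centred at -32095 bp, was called in 4 lists, and one of 291 bp centred 2002 bp after the start in LFD-LSK replicate 2 alone, 13 bp from the start of the long noncoding RNA A530013C23Rik. The regions near the other members lay at other genes. The one near Cebpd, in 6 lists, covered the start of Mzt2, and the one near Cebpz, also in 6 lists, covered the start of Cebpzos. For coding starts as a whole the median was 0.286 other peaks per list within 50 kb, with 44.3% having none. The mean was 1.57 for Cebpb, 0.857 for Cebpd, Cebpe, and Cebpz, 0.143 for Cebpa (the second peak of its own domain), and 0 for Cebpg.

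**Figure D5:**
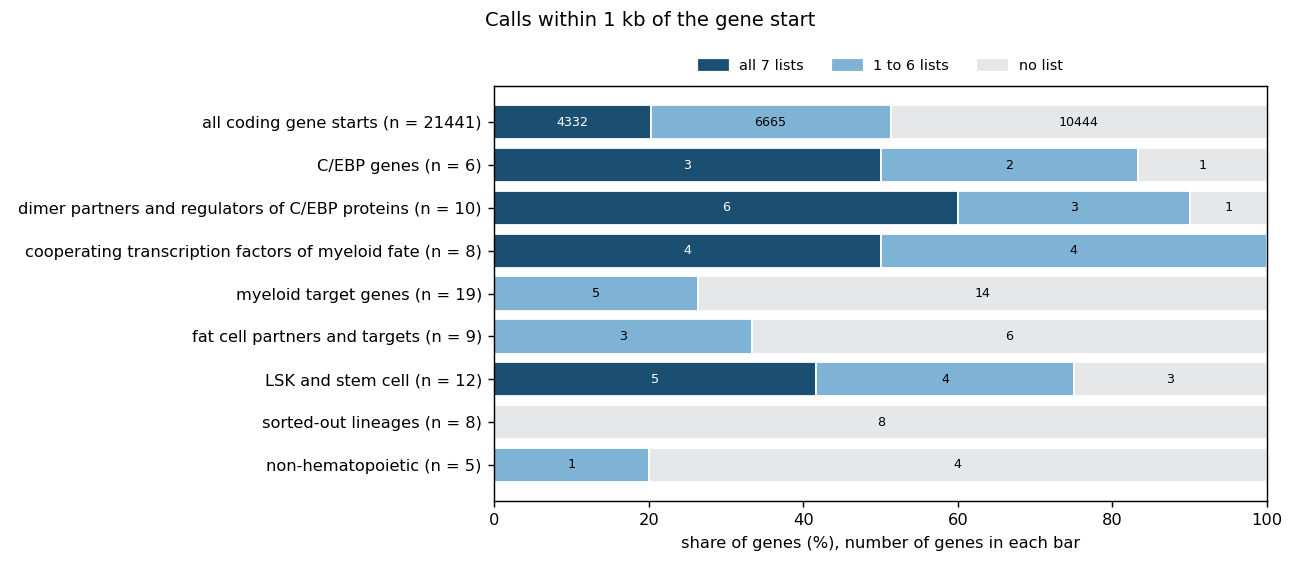
Share of genes called within 1 kb of the start in all 7 lists, in 1 to 6 lists, or in none, for all coding starts, the C/EBP genes, and 7 gene lists, with the number of genes in each bar segment. Of the 19 myeloid target genes 14 had no call, and of the 10 dimer partners and regulators 1 had none, where 48.7% of all coding starts had none.

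Genes around the family were grouped by role. Over all coding starts, 20.2% were called in all 7 lists, 31.1% in some, and 48.7% in none. Among 10 dimer partners and regulators of C/EBP proteins, 6 were called in all 7 lists, 3 in some, and 1 in none. Trib1, a pseudokinase that directs the breakdown of C/EBPα, was called in all 7 with a median width of 2551 bp, and Fbxw7 and Cop1, parts of ubiquitin ligases, were called in all 7 with median ranks of 390 and 1727. Ddit3, a C/EBP-like stress factor, was in 6 lists. Atf4, another stress factor that can pair with C/EBP proteins, had no peak in any list, at its start or inside the gene. Among 8 transcription factors that work with C/EBP proteins in myeloid fate, 4 were called in all 7 lists (Cbfb, Gfi1, Myb, and Gata2) and 4 in some. Gfi1, a transcriptional repressor that acts in the granulocyte lineage, had a median width of 3137 bp. Spi1, which encodes PU.1, was called at its outermost start in 1 list, but all 7 lists had a peak inside the gene. Irf8, a monocyte and dendritic cell factor, was called in 1 HFD-LSK list alone.

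Downstream genes were mostly uncalled. Of 19 myeloid target genes, 0 were called in all 7 lists, 5 in some, and 14 in none, where 48.7% of all coding starts were in none. Csf3r, the receptor for granulocyte colony-stimulating factor, had a call at its start in all 3 HFD lists and 1 LFD list, and a peak inside the gene in 3 lists of each diet. Calls at the start were present for Il6ra and Cd14 in 6 lists each and for Prtn3 and Lyz2 in 1 list each. The granule and neutrophil genes Mpo, Elane, Ctsg, Ltf, Camp, Ngp, Lcn2, S100a8, and S100a9 had no call at the start. Of 9 fat cell partners and targets, 0 were called in all 7 lists, Pparg was in 6, Klf5 in 5, and Lpl in 4, and 6 were in none. With a peak anywhere inside the gene, an alternative chosen after seeing the data, 13 of 19 myeloid target genes and 4 of 9 fat cell genes had no call, where 42.7% of all coding genes had none. By that count Prtn3 was in all 7 lists, Srebf1 in 6, and Plin1 in 3. None of these myeloid and fat cell genes was called in all 7 lists, so none was tested for rank or width. Of the 10 partners and regulators and cooperating factors called in all 7 lists, 0 had a rank or a width that differed between diets at an exact permutation p under 0.05. Among the LSK markers Kit alone had a peak wider in HFD-LSK at this threshold, by 2026 bp (exact permutation p = 0.0286). Of all starts called in all 7 lists, 3.74% did. The mean width was also larger in HFD-LSK at Cd34, Gata2, Meis1, and Mecom, by 411, 713, 732, and 868 bp, without passing the threshold. A wider mean in HFD-LSK was present at 92.6% of all starts called in all 7 lists, with a median difference of 275 bp, so this direction is not particular to the markers.

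Genes with the most similar pattern of ranks were found by the root mean square difference of rank over the 7 lists, among coding genes called in the same lists. For Cebpa these were Il10rb, Ran, and Pccb, with differences of 647, 674, and 739 ranks, out of 4328 genes compared. For Cebpg they were Gpr89, Nme2, and Med29, with 412, 509, and 545 ranks. For Cebpd the closest, Sco2, was 1089 ranks away, followed by Nsmce4a and Nup133. Akna was 522 ranks from Cebpb among 444 genes, ahead of Nr2f1 and H2ac13. Tcf7l1 was 1254 ranks from Cebpz among 1504 genes, ahead of H2az2 and Galnt2. The points share their libraries, so likeness of rank is a description of these lists.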

How the data were processed

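Peak lists of H3K4me3 CUT&Tag in LSK cells were analyzed for 3 libraries from HFD mice and 4 from LFD mice, with groups and replicate numbers from the labels. Library titles name CUT&RUN and the protocol CUT&Tag. The 7 IgG libraries were not analyzed here. The study describes a further cohort of LSK cells, and the labels do not tie libraries to cohorts, so cohort cannot be told apart from the other differences between libraries. The members and gene lists were chosen with earlier results of these data known.

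According to the submitters' processing notes, reads were trimmed with Trim Galore, aligned with Bowtie2 to GRCm38, and called with MACS2, with no version given in the sources used here. The methods of the study name GRCm39 and SEACR instead, and the deposited lists have the MACS2 format and match gene starts of GRCm38. The authors deposited 1 list per library. The lists do not say whether an IgG control entered the background, and the methods of the study describe peaks called against a matched IgG control. For each peak the authors deposited a score, the fold enrichment (the scaled summit over the background near it, with 1 added to each), and p-values and q-values as −log10. Each list holds positions as well, and the position of the summit was taken from it. The lowest −log10 p in any list was 5.01. The lists hold no fragment counts per region, so the count model of the study's methods was not used.

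Gene starts were the outermost bounds of RefSeq genes of GRCm38.p6, with strands by gene ID from RefSeq promoters or by symbol from GENCODE, for 98.0% of coding genes. A gene whose main start lies inside these bounds can read as uncalled. Overlapping or touching peaks were merged into 14659 consensus peaks, and each was ranked within its list by fold. An uncalled library was placed midway between its last called rank and 14659. Calls were tested by Fisher's exact test and ranks and widths by two-sided exact permutation over libraries, without adjustment at a threshold of 0.05. The labels do not say that libraries came from separate mice, so p-values measure only the spread between these libraries. Fragments at summits were recovered by inverting the MACS2 formulas at a relative error of 5e-05, which solved 100% of peaks. The background is the highest of the genome-wide and local values that MACS2 used, in scaled fragments. Depth is not in the lists, and the precision of a summit is limited by its fragments.

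Named genes were the members, the 3 genes nearest in rank to each, genes that share a peak or lie nearest to another peak within 50 kb, and the lists, of which 1 gene is not reported here. Alternatives were a −log10 q of at least 5, equal list lengths, 3 kb windows, other ranks, merging within 500 bp, other distances, each library left out, and the replicate number as a block. Ranks by fragments and peaks inside genes were added after seeing the data. Steps were tested on simulated data. Python 3.11.15, numpy 2.4.6, and scipy 1.17.1 were used.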

Additional observations from a re-analysis of the deposited data

Results flagged for a closer look

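The width of the Cebpd peak in LFD-LSK replicate 4 was 498 bp, while the other 3 LFD-LSK libraries lay between 1116 and 1201 bp. The gap to the nearest library made up 0.879 of the range of the group, which marked it as far from the others. Of 9 groups of 4 libraries checked, 1 was marked in this way, and chance marks about 1 in 20 groups. The library had the shortest list (6921 peaks), the narrowest median peak (525 bp), and 20 fragments at the Cebpd summit. Without it the difference in width between diets was 504 bp, and each HFD-LSK library was still wider than each remaining LFD-LSK library (exact permutation p = 0.1, the smallest possible with 3 against 3). The part of list length in the width was not tested.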

How the results depend on the processing

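No call, rank difference, or width difference of a member passed the threshold under any alternative unless it did so in the values given first, and the cause of each change below was not tested. Of the recomputed differences between diets (HFD-LSK minus LFD-LSK), 66 of the rank values and 24 of the width values kept their direction and side of the threshold. The direction turned in 10 rank values and 2 width values, and 9 width values, all of Cebpd, no longer passed the threshold. With a −log10 q of at least 5, the difference in the share of lists called turned from 50 to -25 percentage points at Cebpb and from 25 to -8.33 at Cebpz, it moved from 0 to -33.3 at Cebpa and to 25 at Cebpd, and the share of coding starts called in all 7 lists moved from 20.2% to 11.8%. With all lists cut to the length of the shortest it was -41.7 points at Cebpz, 0 at Cebpb (called in 0 lists), -33.3 at Cebpa, and -8.33 at Cebpd. The rank difference of Cebpd turned from 816 to -72.2 by −log10 p, and to -8.94 as a percent of called peaks, where Cebpg turned from 71.2 to -4.98. Ranked by summit fragments, an alternative added after seeing the data, Cebpb turned from 1051 to -1413 and Cebpd to -1061, while Cebpa kept its direction at 931 (exact permutation p = 0.286) against 3573.

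The width difference of Cebpd no longer passed as a width rank within the list (1222 ranks, exact permutation p = 0.171), where Cebpg turned to -978 ranks. With single libraries left out, where 3 against 3 or 2 against 4 libraries cannot give a p below 0.05, the Cebpd width difference ranged from 504 to 844 bp, that of Cebpg from -72 to 379 bp, the Cebpd rank difference from -1367 to 2688, that of Cebpg from -177 to 385, that of Cebpa from 915 to 5564, that of Cebpb from 146 to 2062, and that of Cebpz from 349 to 4073. The Cebpg width turned without HFD-LSK replicate 2, the Cebpd rank without HFD-LSK replicate 2 (-1367) or LFD-LSK replicate 2 (-142), and the Cebpg rank without LFD-LSK replicate 3 or 4 (-148). Over the alternatives the exact p at the Cebpd width ranged from 0.0286 to 0.25.

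Rank deviations showed no pairing by replicate number, but they cannot show whether libraries were prepared in pairs. The methods of the study name batch and paired samples among the covariates of its peak comparison. The labels do not say which libraries were paired. Rank deviations of same-numbered libraries correlated at 0.00366 to 0.0846, with 0 of 3 pairs over 0.1, and those of other pairs at -0.0927 to 0.0971. With the replicate number as a block, which leaves out LFD-LSK replicate 4 and cannot give a p below 0.25, the Cebpd width difference was 504 bp (exact sign-flip permutation p = 0.25) and the Cebpg rank difference -147.5 (p = 0.75 by the same exact test). Few fragments per summit and unequal lists limit what a missing call shows.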
